A study of Mus with 2 samples.

Results

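The renin-angiotensin system genes Agt, Ren1, Ace, Enpep, Agtr1a, Agtr1b and Agtr2 were followed across the cell types of the newborn mouse kidney. The 7 genes were chosen by symbol from the 28693 features of the count matrices, and all 7 symbols were present. Kidneys were collected at postnatal day 0 from mice of the genotype Rbpj c/- ; Foxd1cre/+, in which a floxed Rbpj allele was deleted in the renal interstitium by a Cre recombinase driven from Foxd1. Rbpj encodes the DNA-binding partner of Notch receptors, and Foxd1 marks the stromal progenitors of the kidney. Of the 4 libraries in the design, 2 are these mutants, and the 2 controls (Rbpj c/+ ; Foxd1cre/+) were not analysed here, and mutants are nowhere compared with controls. The labels do not say which exons the floxed allele loses, whether the libraries come from separate animals, which strain was used, or what the EYFP feature in the matrices reports. The spread between the libraries, and every p-value that rests on it, may therefore be technical.

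Renin cleaves angiotensinogen, a secreted protein made mainly by the liver and also by the proximal tubule, to angiotensin I. Angiotensin-converting enzyme trims angiotensin I to angiotensin II, which acts through the type 1 receptors (Agtr1a and Agtr1b in rodents) and the type 2 receptor (Agtr2), and aminopeptidase A, the product of Enpep, shortens angiotensin II further. In the developing kidney renin is made along the arterial tree by cells descended from Foxd1-expressing stroma, and with maturation it becomes restricted to the juxtaglomerular cells beside the glomerulus.

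Droplet libraries (10x Chromium) were sequenced from the 3' end of each cDNA, and their counts are of unique molecular identifiers (UMIs), 1 per captured transcript molecule. They hold 163405630 and 135436576 UMIs. Barcodes with at least 2000 UMIs and at most 10% mitochondrial UMIs were kept, 6220 in replicate 1 and 5149 in replicate 2, with median depths of 11987.5 and 12307 UMIs. The libraries share 6 kept barcode sequences (0.0965% and 0.117%). Each barcode was assigned to a cell type by a gate of marker genes that holds none of the 7 genes. Of 11369 kept barcodes, 10196 entered a gate, and 89 of the 98 markers of the 12 types compared were highest in their own type in both libraries. The names below stand for barcodes that look like that type by its markers. The stroma gate held 1001 and 913 barcodes, and the mural gate, meant for smooth muscle and pericytes of vessel walls, 152 and 85. The mural gate was mixed. Acta2 was detected in 98.0% and 98.8% of its barcodes, but Myh11, a marker of differentiated smooth muscle, in only 42.8% and 42.4%, while the stromal collagen Col1a1 was detected in 84.2% and 87.1%. A clustering that did not use the gate placed 176 of its 237 barcodes in clusters named stroma and 51 in clusters named podocyte. Rbpj itself was counted at 26.4 and 25.3 UMIs per 1000000 in stroma without renin. A 3' count cannot show whether an internal exon is missing, so this value does not check the deletion.

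Levels are given as CPM, counts per 1000000 UMIs of all barcodes in that gate, with replicate 1 before replicate 2 and exact 95% Poisson intervals in brackets. The intervals cover counting error only. Each type was also compared with the mean of the other 11 by edgeR's quasi-likelihood test on UMIs summed per library and type, with the library as a block and p-values adjusted over all 15461 genes tested. That mean is an average of log levels, so it weights a type at a very low level as much as a type at a high one. For genes without a UMI in some type the fitted fold change has no firm scale. For Ren1, Agt, Agtr1b and Agtr2 the direct ratio of CPM is therefore given for each library, with the adjusted p from the fit.

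**Figure D1:**
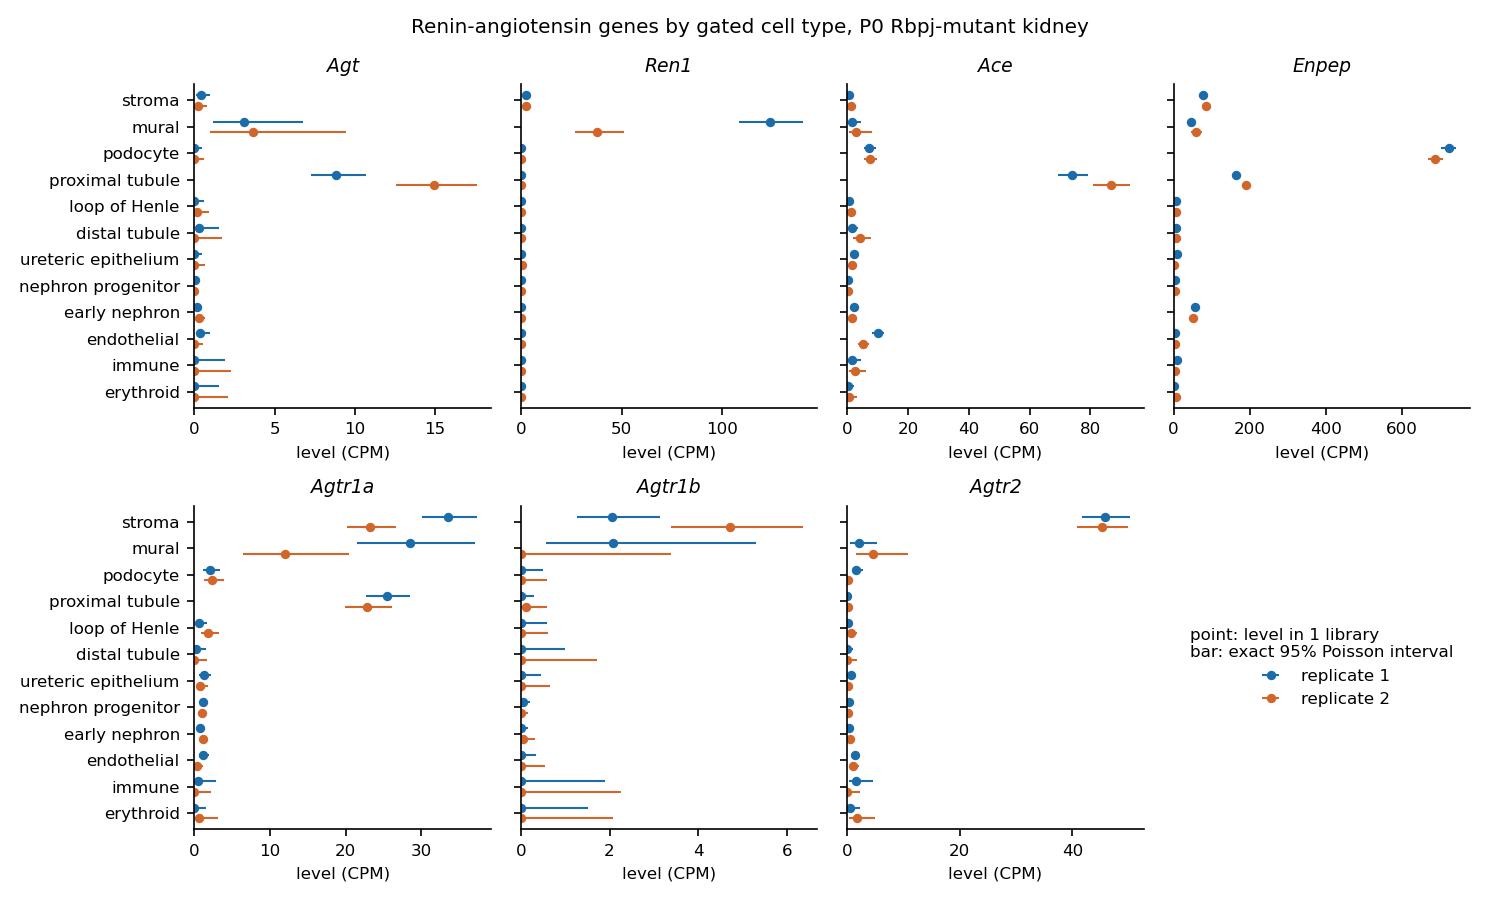
Level of each of the 7 genes (CPM, x axis, a separate linear scale per gene) in the 12 gated cell types (y axis); each point is 1 library and each bar its exact 95% Poisson interval. Agt and Ace are highest in the proximal tubule, Ren1 in the mural gate, Enpep in podocytes, and Agtr2 in stroma in both libraries, while Agtr1a has its 3 highest levels in stroma, proximal tubule and mural barcodes.

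Agt (ENSMUSG00000031980, chromosome 8 from 124556587 to 124569706 in mm10), the gene of the angiotensin precursor, was a proximal tubule transcript in these kidneys. Proximal tubule barcodes, 332 and 252 in number, held 106 and 140 of the 132 and 154 Agt UMIs in the libraries, or 80.3% and 90.9%. Their level was 8.84 CPM [7.24 to 10.7] in replicate 1 and 14.9 CPM [12.5 to 17.6] in replicate 2. The libraries differed from each other by more than counting error, yet both lay above every other type. The proximal tubule level was 44.7 times that of all other types pooled in replicate 1 [27.6 to 76.2] and 99.0 times in replicate 2 [54.9 to 196], with an adjusted p of 4.14e-11 by edgeR's quasi-likelihood test. Agt UMIs were found in 57 of 332 and 42 of 252 proximal tubule barcodes (17.2% and 16.7%), and in 3.35% and 3.27% after every barcode was thinned to 3000 UMIs. No Agt UMI fell in podocyte, ureteric, immune or erythroid barcodes.

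The transcript was also unevenly spread within the proximal tubule. As few as 12 barcodes in replicate 1 and 7 in replicate 2 held 50% of the Agt UMIs of that gate. Barcodes with Agt were deeper, with median depths of 43268 and 53133 UMIs against 20366 and 20723 for those without. Ace was detected in 87.7% and 90.5% of Agt-positive barcodes and in 63.3% and 65.2% of Agt-negative ones. Depth moved with Agt detection in the same direction, and its part in these shares was not tested. Slc34a1, the phosphate transporter of the differentiated proximal tubule and itself a marker of this gate, divided the barcodes differently for different genes. Agt stood at 8.45 and 13.6 CPM in proximal tubule barcodes with Slc34a1 and at 14.7 and 28.0 CPM in the 45 and 41 without it. Ace ran the other way, at 76.5 and 90.1 CPM with Slc34a1 and 37.5 and 52.6 CPM without it, as did Agtr1a at 26.7 and 23.9 against 6.70 and 11.7 CPM. Without Slc34a1 these levels rest on 11 and 24 Agt UMIs, 28 and 45 Ace UMIs and 5 and 10 Agtr1a UMIs. Those barcodes were also shallower, with median depths of 15979 and 15890 UMIs against 23182 and 24140 with Slc34a1. These splits compare barcodes within a library and carry no test.

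Because Agt is a liver product, the liver genes fixed for this check (Alb, Afp, Apoa1, Apoa2, Ttr, Serpina1a and Fgb) were read beside it. Alb, the serum albumin gene and a defining liver transcript, was near 0 in the kept barcodes, at 0.682 and 0.454 CPM. Afp, the fetal albumin relative, had 4141 of its 6313 UMIs and 2803 of its 4717 UMIs in the proximal tubule gate. Summed, the 7 liver genes stood at 542 and 681 CPM in Agt-positive proximal tubule barcodes, 443 and 430 CPM in Agt-negative ones, and 70.3 and 74.0 CPM over all kept barcodes. At least 3 of the 7 were detected in 40 of 57 and 24 of 42 Agt-positive barcodes, against 64 of 275 and 44 of 210 Agt-negative ones. The part of these transcripts in the Agt level was not tested.

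Small amounts of Agt were found outside the tubule. Mural barcodes held 6 and 4 UMIs (3.11 and 3.68 CPM) and stromal barcodes 4 and 2. By ratio the mural level was 7.94 times the stromal one in replicate 1 [1.88 to 38.3] and 16.4 times in replicate 2 [2.35 to 181], with an adjusted p of 0.0147 by edgeR's quasi-likelihood test. Against the mean of all other types the mural gate also passed, with an adjusted p of 4.67e-04 by the same edgeR test, although the pooled ratio was 2.88 [1.04 to 6.46] and 2.19 [0.588 to 5.72]. Both calls rest on 10 mural UMIs in all, and barcodes of at most 100 UMIs, which sample RNA free in the suspension, held Agt at 6.25 and 5.53 CPM, above the mural level. Those of 101 to 500 UMIs held it at 1.22 and 2.34 CPM, below the mural level.

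Ren1 (ENSMUSG00000070645, chromosome 1 from 133350674 to 133360320), the gene of renin, had its highest level in the mural gate and was carried by very few barcodes. The libraries held 274 and 74 Ren1 UMIs. Mural barcodes had 238 and 41 of them (86.9% and 55.4%), stroma 26 and 25 (9.49% and 33.8%), and the other 10 types at most 3 in a library. The mural level was 123 CPM in replicate 1 and 37.7 CPM in replicate 2, with a mean of 80.5, and the stromal level was 2.54 CPM [1.66 to 3.73] and 2.80 CPM [1.81 to 4.14]. The stromal values agree between libraries within counting error and the mural values do not. Mural exceeded stroma 48.5 times in replicate 1 [32.3 to 75.7] and 13.5 times in replicate 2 [7.99 to 23.1], with an adjusted p of 1.85e-06 by edgeR's quasi-likelihood test. Against all other types pooled, the mural ratio was 458 [312 to 693] and 104 [63.7 to 170], with an adjusted p of 1.15e-11 by the same edgeR test. Barcodes of at most 100 UMIs held Ren1 at 4.83 and 3.60 CPM, above the stromal level, and those of 101 to 500 UMIs at 0.864 and 2.28 CPM.

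A single barcode supplied most of the renin of replicate 1. It held 207 Ren1 UMIs, 75.5% of that library's total, among its 10915 UMIs. The richest barcode of replicate 2 held 23 of the 74 Ren1 UMIs, or 31.1%, in a barcode of 10548 UMIs. Without these 2 barcodes the mural level fell to 16.2 CPM [11.0 to 22.9] and 16.7 CPM [9.91 to 26.4]. Mural barcodes then held 31 of 67 and 18 of 51 Ren1 UMIs (46.3% and 35.3%) and stromal ones 26 and 25 (38.8% and 49.0%). The 2 barcodes left out were chosen by their Ren1 counts, and the intervals treat UMIs of 1 barcode as independent. In a fit without the barcode of 207 Ren1 UMIs, an alternative chosen after the data were seen, the mural gate lay above stroma with an adjusted p of 2.37e-04 by edgeR's quasi-likelihood test. The call was lost when the mitochondrial limit was set at 5%, where it had an adjusted p of 0.149 by edgeR's test, and under DESeq2, at 0.385. The log2 fold change was 1.86 at that limit and 5.08 under DESeq2. The 5% limit leaves out the mural barcodes of 207, 23 and 16 Ren1 UMIs, whose mitochondrial shares were 5.58%, 9.84% and 7.27%. Over all alternatives tried for this gene and contrast the adjusted p ran from 1.17e-23 to 0.385.

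Stromal renin was low. Ren1 UMIs were found in 17 of 1001 and 13 of 913 stromal barcodes (1.70% and 1.42%), and in 7 of 152 and 3 of 85 mural ones (4.61% and 3.53%). At most 3 of the stromal UMIs of replicate 1 were in 1 barcode, whereas in replicate 2 a single barcode held 10 of the 25. Podocyte, loop of Henle, distal tubule, immune and erythroid barcodes had none. Over the other types pooled, the stromal ratio was 1.08 in replicate 1 [0.693 to 1.63], where the mural gate sets the pooled level, and 4.68 in replicate 2 [2.76 to 7.74]. Against the average of log levels stroma passed with an adjusted p of 2.37e-05 by edgeR's quasi-likelihood test, and it did not pass with DESeq2 (adjusted p = 0.182, the highest of the alternatives, whose lowest was 8.72e-14). Within stroma, the barcodes that entered no marker subset held 8 and 18 Ren1 UMIs (3.59 and 9.33 CPM), with 10 of the 18 in 1 barcode. Barcodes with mesangial markers held 13 and 2, those of the nephrogenic zone 3 in each library, adventitial ones 2 in each, and medullary and interstitial ones none. Renin was too low there to enter the fit over stromal subsets.

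Ren2, the duplicated renin gene that some mouse strains carry, is not among the features. Where a strain carries it, its reads could fall on Ren1, so the Ren1 counts do not tell the copies apart.

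Renin-positive barcodes, meaning those with at least 1 Ren1 UMI, numbered 32 of 6220 and 24 of 5149, or 56 in all (0.493%). EYFP UMIs were present in 25 of 32 (78.1%, exact 95% binomial interval 60.0 to 90.7) and in 14 of 24 (58.3%, 36.6 to 77.9). Over both libraries 39 had EYFP and 17 did not (69.6%, 55.9 to 81.2). With a minimum of 2 EYFP UMIs, 20 and 12 of them were positive. Raising the renin minimum left fewer barcodes and mostly those with EYFP. At least 2 Ren1 UMIs were found in 13 and 6 barcodes, of which 13 and 5 had EYFP (94.7%, 74.0 to 99.9). At least 5 were found in 3 and 3, of which 3 and 2 had EYFP, and these 6 barcodes held 80.5% of all Ren1 UMIs. At least 10 were found in 2 and 3, of which 2 and 2 had EYFP. The barcode with the most renin in replicate 2 was the one of these without an EYFP UMI.

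By gate, 30 of the 56 renin-positive barcodes were stromal, 10 mural and 5 ambiguous between gates, and the other 11 were ureteric (4), proximal tubule (3), endothelial (2), nephron progenitor (1) and early nephron (1). All 11 had a single Ren1 UMI, and 1 of them had EYFP. Among the 10 mural barcodes 9 had EYFP (90%, 55.5 to 99.7), against 123 of the 227 mural barcodes without renin (54.2%, 47.5 to 60.8). By library it was 7 of 7 against 59.3% in replicate 1 and 2 of 3 against 45.1% in replicate 2. With every barcode thinned to 3000 UMIs the mural shares were 80% and 38.1%. In stroma 25 of 30 renin-positive barcodes had EYFP (83.3%, 65.3 to 94.4), against 1709 of 1884 without renin (90.7%), and after thinning to 3000 UMIs the shares were 62.1% and 64.2%. All 9 stromal barcodes with at least 2 Ren1 UMIs had EYFP, and 16 of the 21 with a single one did. For stroma and mural barcodes together the share with EYFP was 85% with renin (34 of 40) and 86.8% without it, and after thinning to 3000 UMIs it was 66.7% and 61.4%.

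Outside stroma and mural, counting ambiguous and ungated barcodes, 5 of 16 renin-positive barcodes had EYFP (31.3%, 11.0 to 58.7), against 17.0% of the 9202 without renin. The libraries differed in direction, with 4 of 8 against 18.5% in replicate 1 and 1 of 8 against 15.2% in replicate 2. The renin-positive ones were deeper, with a median of 29574.5 UMIs against 13269.5. EYFP was also found in types outside the stroma. Before thinning it was, of the 12 types compared, lowest in erythroid barcodes, at 1.49% and 0.580% with median depths of 4542 and 4622 UMIs. It was found in 6.74% and 5.23% of immune barcodes, 9.33% and 5.28% of endothelial ones, 13.0% and 9.16% of nephron progenitors, 19.4% and 8.61% of ureteric epithelium and 51.5% and 44.4% of podocytes. Depth differs between these types, and after thinning to 3000 UMIs the shares were 1.40% and 0.366% in erythroid barcodes, 1.69% and 1.5% in immune, 3.93% and 2.47% in endothelial, 3.24% and 2.37% in nephron progenitor, 2.29% and 2% in ureteric and 34.7% and 25.4% in podocyte barcodes, against 64.4% and 63.9% in stroma. Thinned shares were 0% and 1.79% in loop of Henle and 0% and 4.76% in distal tubule barcodes. Erythroid barcodes were thus not the lowest in replicate 1 after thinning. Unthinned, stroma stood at 90.2% and 91.0% with median depths of 9570 and 9228. The EYFP level was 389 and 370 CPM in stroma and 236 and 123 CPM in the mural gate. It was 145 and 95.5 CPM in podocytes. Barcodes of at most 100 UMIs held 48.0 and 49.0 CPM of EYFP. These shares count barcodes of 2 libraries and carry no test between groups.

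**Figure D2:**
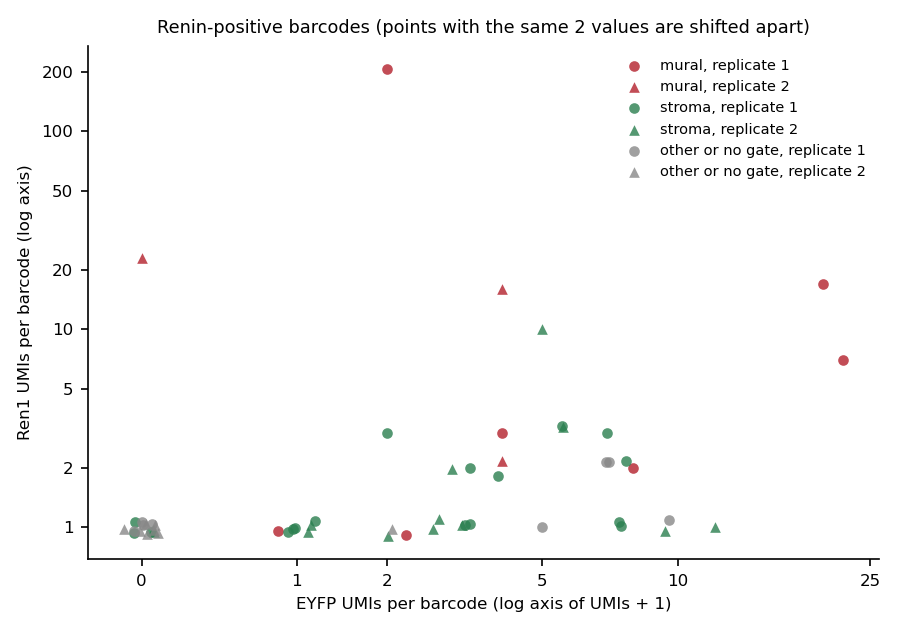
Each of the 56 renin-positive barcodes by its EYFP UMIs (x axis, log scale of UMIs + 1) and its Ren1 UMIs (y axis, log scale); colour gives the gate and shape the library. The barcode with 207 Ren1 UMIs stands alone at the top with 2 EYFP UMIs, the 23-UMI barcode of replicate 2 has none, and the barcodes without EYFP otherwise lie at 1 Ren1 UMI.

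The 6 barcodes with at least 5 Ren1 UMIs, 5 mural and 1 stromal, were read for genes of the renin cell programme. Renin itself chose these barcodes. With 3 in each library no test was made, and values are levels summed over those 3, against the 145 and 82 mural barcodes without renin. Rgs5, a regulator of G protein signalling typical of pericytes and of renin cells, stood at 561 and 1269 CPM against 355 and 301. A single barcode held 37 of its 51 UMIs in replicate 1 and 35 of 37 in replicate 2, and the rest lay below the comparison, at 175 CPM [95.6 to 293] and 107 CPM [13.0 to 388]. Notch3, the Notch receptor of mural cells, stood at 110 and 240 CPM against 47.3 and 50.3, from 10 and 7 UMIs, of which 8 and 5 were in 1 barcode, and the rest lay at 25 CPM [3.03 to 90.3] and 104 CPM [12.6 to 376]. Gja4, a vascular gap junction gene, stood at 77.0 and 171 CPM against 17.2 and 2.85, from 1 and 2 barcodes, and without the one with its highest count 0 and 1 UMIs were left (0 and 52.0 CPM). The summed levels of these 3 genes thus rest on 1 or 2 barcodes a library. Gnas, which encodes the stimulatory G protein that couples to cyclic AMP, stood at 3090 and 3807 CPM against 2029 and 1908, and still at 2875 and 2703 CPM without the barcode with its highest count in each library.

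Smooth muscle genes did not separate the renin-rich barcodes in 1 direction. Acta2 stood at 6619 and 10837 CPM against 5531 and 4915. In order of falling Ren1, the 3 barcodes held 56, 403 and 143 Acta2 UMIs in replicate 1 and 81, 234 and 1 in replicate 2. A single barcode thus held most of them in each library. Tagln was lower in replicate 1 (1484 against 4578 CPM) and higher in replicate 2 (7407 against 5320 CPM), as was Myh11 (242 against 1024, and 2058 against 978). All 22 Myh11 UMIs of replicate 1 fell in the barcode with 207 Ren1 UMIs, and the other 2 barcodes, of 46834 and 33203 UMIs, had none. The barcode of 207 Ren1 UMIs held 1 Tagln UMI, and the other 2 held 117 and 17. The calponin gene Cnn1 was lower in both, at 0 and 137 CPM against 253 and 399. Des, the muscle intermediate filament gene, had 3 UMIs in replicate 1 and none in replicate 2, against 155 and 201 CPM. Foxd1 had 1 UMI in these 6 barcodes, against 108 and 113 CPM in the mural barcodes without renin. Akr1b7, a reductase made by mouse renin cells, had 2 UMIs, both in the richest barcode. The Notch target Hey1 had none against 18.4 and 23.7 CPM. At the depth of these barcodes such levels predict few or no UMIs, so the absence of Hey1 shows no difference. Rbpj had 3 and 2 UMIs (33.0 and 68.6 CPM) against 35.6 and 58.8 CPM. Of the 28 companion and regulator genes on the fixed list, EYFP among them, 14 and 15 were higher in the renin-rich barcodes of replicates 1 and 2, or 14 of the 23 and 15 of the 18 with a UMI in them. Of all genes with a UMI in the renin-rich barcodes, 58.2% and 67.1% were higher there.

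Among the other 6 renin-angiotensin genes, the renin-rich barcodes held Agtr1a and Enpep. Agtr1a had 16 UMIs in replicate 1 and 1 in replicate 2 (176 and 34.3 CPM, against 21.7 and 12.3 CPM in mural barcodes without renin). All 16 came from 2 deep barcodes, of 46834 and 33203 UMIs, and the barcode with 207 Ren1 UMIs had none. Enpep had 10 and 4 UMIs (110 and 137 CPM against 43.9 and 57.9). Agt, Ace, Agtr1b and Agtr2 had no UMI in any of the 6. At their mural levels hardly any UMI would be expected at this depth, so these zeros do not set them apart.

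Markers of the adrenal gland and the liver were read in the renin-positive barcodes. The 7 adrenal genes fixed for this purpose, which include Star and Cyp11a1 of steroid synthesis, had 1 and 2 UMIs in all in the renin-positive barcodes of the 2 libraries, and no kept barcode held 3 of them. The 7 liver genes had 9 and 24 UMIs there (10.9 and 50.8 CPM, beside 70.3 and 74.0 CPM over all kept barcodes), and 1 renin-positive barcode, of replicate 2, held at least 3 of them.

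Ace (ENSMUSG00000020681, chromosome 11 from 105967948 to 105989964), the gene of angiotensin-converting enzyme, was highest in the proximal tubule, followed at a distance by endothelium and podocytes. Proximal tubule barcodes held 888 of 1211 and 814 of 1015 Ace UMIs (73.3% and 80.2%), at 74.0 CPM [69.2 to 79.1] and 86.7 CPM [80.9 to 92.9]. Endothelial barcodes stood at 10.1 CPM [8.28 to 12.2] and 5.22 CPM [3.63 to 7.26], and podocytes at 7.21 and 7.42 CPM. The order of endothelium and podocyte is not settled, since their library ranges overlap, while the proximal tubule lay 10.5 times above the next type by mean CPM and did not overlap it. Nephron progenitors were lowest, at 0.310 and 0.318 CPM, and stroma stood at 0.587 and 1.23 CPM.

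Against the mean of the other types Ace was higher in the proximal tubule by 5.36 ± 0.15 (log2, ± SE, adjusted p = 8.66e-18 by edgeR's quasi-likelihood test). It was higher in endothelium by 1.72 ± 0.24 (adjusted p = 3.09e-06, edgeR) and in podocytes by 1.44 ± 0.26 (adjusted p = 7.75e-05, edgeR). Stroma was lower, at -1.77 ± 0.41 (adjusted p = 0.00101, edgeR), as were nephron progenitors, at -3.31 ± 0.45 (adjusted p = 2.07e-06, edgeR). The mural gate did not pass, with 3 Ace UMIs in each library and -0.59 ± 0.66 (adjusted p = 0.593, edgeR). Podocytes and endothelium are called higher because most of the 11 other types stood below them. Relative to all other barcodes pooled, which the proximal tubule dominates, the podocyte ratio was 0.696 and 0.660 and the endothelial ratio 0.994 and 0.456. The enzyme is best known from endothelium. Here Ace was detected in 44 of 772 and 19 of 511 endothelial barcodes (5.70% and 3.72%), and 7 and 5 of these held 50% of the endothelial UMIs. Barcodes of at most 100 UMIs held Ace at 20.2 and 17.7 CPM, above both the endothelial and the podocyte level.

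Enpep (ENSMUSG00000028024, chromosome 3 from 129269177 to 129332749), the gene of aminopeptidase A, was detected in nearly all podocytes. Podocyte barcodes held 5312 of 10369 and 4356 of 8366 Enpep UMIs (51.2% and 52.1%), at 722 CPM [703 to 742] and 688 CPM [668 to 709]. The transcript was found in 96.3% and 95.8% of podocyte barcodes, and in 86.1% and 83.4% after thinning to 3000 UMIs. The proximal tubule followed at 165 and 191 CPM, then stroma at 76.6 and 85.3 CPM. Podocytes stood 4.38 times above the proximal tubule in replicate 1 [4.16 to 4.61] and 3.61 times in replicate 2 [3.41 to 3.82]. Early nephron (56.2 and 50.4 CPM) and mural barcodes (46.6 and 58.9 CPM) overlapped each other. The other 7 types lay between 1.64 and 9.76 CPM, and barcodes of at most 100 UMIs at 55.7 and 49.8 CPM.

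By edgeR's quasi-likelihood test Enpep was higher than the mean of the other types in podocytes, by 5.38 ± 0.11 (log2, adjusted p = 1.37e-20). It was higher in the proximal tubule by 3.36 ± 0.12 (adjusted p = 7.55e-16, edgeR), in stroma by 2.06 ± 0.14 (adjusted p = 7.98e-11, edgeR) and in the mural gate by 1.26 ± 0.25 (adjusted p = 5.16e-04, edgeR). It was lower in endothelium, at -2.70 ± 0.28 (adjusted p = 3.67e-08, edgeR), and in nephron progenitors, at -2.87 ± 0.24 (adjusted p = 1.52e-09, edgeR). Stroma and the mural gate are called higher because most of the 11 other types stood below them. Over the other types pooled, podocytes among them, the Enpep ratio was 0.882 and 0.942 in stroma and 0.538 and 0.651 in the mural gate. In the proximal tubule that ratio was 2.16 and 2.44. Mural barcodes lay below stroma by -0.73 ± 0.24 (adjusted p = 0.0436, edgeR). That last call was lost without the library block (0.0785), with a mitochondrial limit of 5% (0.221) and under DESeq2 (0.271). The log2 fold changes were then -0.716, -0.423 and -0.640. Its adjusted p over the alternatives ran from 2.82e-04 to 0.271.

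**Figure D3:**
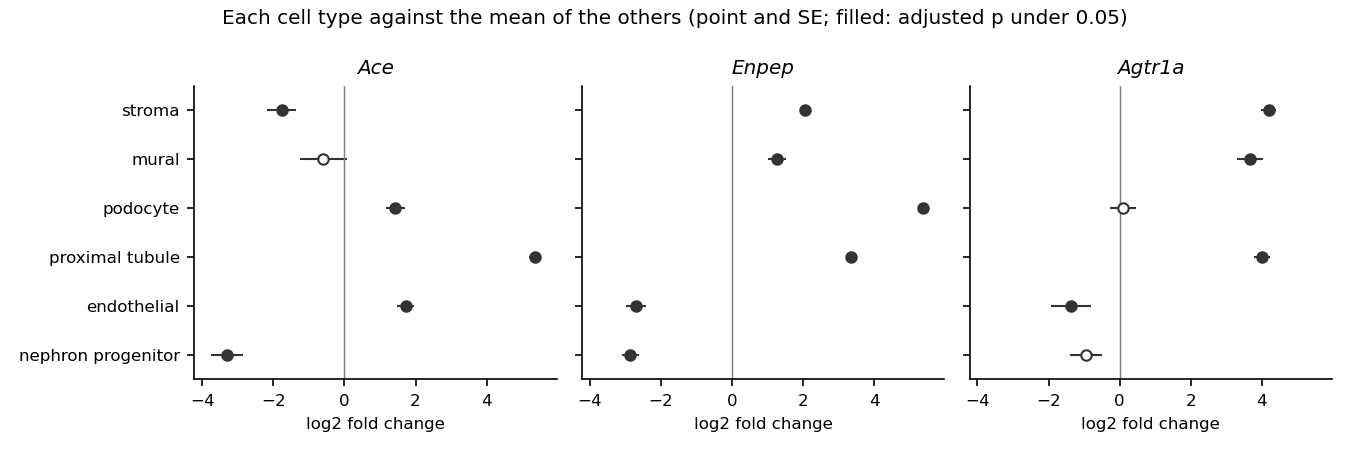
Log2 fold change (x axis) of Ace, Enpep and Agtr1a in each of 6 gated types (y axis) against the mean of the other 11 types; points are edgeR estimates, bars 1 SE, and filled points have an adjusted p under 0.05. Ace reaches 5.36 in the proximal tubule and Enpep 5.38 in podocytes, whereas Agtr1a lies between 3.67 and 4.19 in stroma, proximal tubule and mural barcodes.

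Agtr1a (ENSMUSG00000049115, chromosome 13 from 30336356 to 30382867), the main type 1 angiotensin receptor of rodents, was shared by stroma, proximal tubule and mural barcodes. Stroma stood at 33.6 CPM [30.1 to 37.3] and 23.2 CPM [20.2 to 26.6], the proximal tubule at 25.4 and 22.8 CPM, and the mural gate at 28.5 CPM [21.5 to 37.1] and 12.0 CPM [6.37 to 20.4]. The library ranges of these 3 types overlap, so their order is not settled. All 3 lay above podocytes, the next type, at 2.04 and 2.37 CPM. Stroma held 39.9% and 38.4% of the Agtr1a UMIs and the proximal tubule 35.5% and 39.7%. The stromal level over the proximal tubule level was 1.32 in replicate 1 [1.13 to 1.55] and 1.02 in replicate 2 [0.837 to 1.24]. In the proximal tubule the receptor was found in 40.1% and 42.5% of barcodes, against 18.7% and 13.0% in stroma. Thinning to 3000 UMIs turned that order, to 7.93% and 4.49% against 10.1% and 6.79%. Proximal tubule barcodes had median depths of 21767 and 22027.5 UMIs. Barcodes of at most 100 UMIs held Agtr1a at 3.98 and 4.70 CPM, above the podocyte level.

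Against the mean of the other types Agtr1a was higher in stroma by 4.19 ± 0.21 (log2, adjusted p = 4.25e-13, edgeR). It was higher in the proximal tubule by 4.01 ± 0.22 (adjusted p = 7.47e-13, edgeR) and in mural barcodes by 3.67 ± 0.36 (adjusted p = 4.57e-08, edgeR). Distal tubule, immune and erythroid barcodes each held 1 Agtr1a UMI in 1 library and none in the other, which lowers the mean of the others. Over the other types pooled the stromal ratio was 7.70 and 6.18, and the proximal tubule ratio 5.29 and 6.18. The mural ratio was 4.30 and 2.12. Mural and stroma did not differ past the threshold (-0.48 ± 0.31, adjusted p = 0.332, edgeR). Endothelium, where 12 and 2 UMIs were counted, was lower at -1.37 ± 0.56 (adjusted p = 0.0459, edgeR). That call was lost without the library block (log2 -1.35, adjusted p = 0.0608, edgeR) and with a minimum of 5000 UMIs (log2 -1.33, adjusted p = 0.0581, edgeR). Over the alternatives its adjusted p ran from 0.00155 to 0.0608. Podocytes did not pass (0.09 ± 0.37, adjusted p = 0.936, edgeR).

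Agtr1b (ENSMUSG00000054988, chromosome 3 from 20314473 to 20367177), the second type 1 receptor gene of rodents, was rare, with most of its UMIs in stroma. Of 30 and 47 UMIs in the libraries, stroma held 21 and 42, at 2.06 CPM [1.27 to 3.14] and 4.71 CPM [3.39 to 6.36], and the intervals of the libraries do not overlap. Mural barcodes held 4 UMIs in replicate 1, at the stromal level (2.07 CPM, ratio 1.01 [0.252 to 2.99]), and none in replicate 2, and 3 other types held 1 UMI in 1 of the libraries. Barcodes of at most 100 UMIs held 1 and 0 Agtr1b UMIs. The stromal level was 42.3 times that of the other types pooled in replicate 1 [15.5 to 144] and 189 times in replicate 2 [49.1 to 1609], with an adjusted p of 1.30e-06 by edgeR's quasi-likelihood test. With DESeq2 the adjusted p was 0.370, the highest of the alternatives, whose lowest was 8.10e-15. The mural gate was also called higher (adjusted p = 0.0166, edgeR), on the 4 UMIs of replicate 1 alone, and DESeq2 gave 0.634, the highest of the alternatives against a lowest of 9.38e-04.

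Agtr2 (ENSMUSG00000068122, X chromosome from 21484624 to 21488833), the type 2 receptor gene, was a stromal transcript. Stroma held 468 of 566 and 403 of 485 Agtr2 UMIs (82.7% and 83.1%), at 45.8 CPM [41.7 to 50.1] and 45.2 CPM [40.9 to 49.8]. The libraries agree within counting error. Mural barcodes stood at 2.07 and 4.60 CPM and endothelium at 1.40 and 1.04 CPM. All other types lay at or below 1.69 CPM, and no UMI fell in the distal tubule. Barcodes of at most 100 UMIs held Agtr2 at 3.41 and 4.15 CPM, close to the mural level and above that of endothelium. Over the other types pooled the stromal ratio was 84.2 [63.8 to 113] and 97.8 [69.8 to 141], with an adjusted p of 1.84e-15 by edgeR's quasi-likelihood test. Mural barcodes reached 0.0453 of the stromal level in replicate 1 [0.0123 to 0.117] and 0.102 in replicate 2 [0.0329 to 0.240], with an adjusted p of 4.80e-06 by the same edgeR test. Agtr2 was found in 20.7% and 19.9% of stromal barcodes, and in 8.56% and 10.2% after thinning.

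Few stromal barcodes held both Agtr1a and Agtr2. Both were detected in 19 and 11 barcodes, Agtr1a without Agtr2 in 168 and 108, Agtr2 without Agtr1a in 188 and 171, and neither in 626 and 623. Agtr1a was found in 9.18% and 6.04% of Agtr2-positive barcodes and in 21.2% and 14.8% of Agtr2-negative ones. Within the stromal subsets described next, the share was lower in Agtr2-positive barcodes in 6 of the 10 subset and library pairs and higher in 4. It was 5.56% against 5.34% and 0% against 3.5% in the nephrogenic zone, 10% against 10.3% and 0% against 5.13% in medullary stroma, and 40% against 49.2% and 0% against 29.5% in interstitial stroma. It was 17.9% against 26.5% and 26.7% against 24.7% in mesangial stroma, and 3.03% and 16.7% against 0 of 10 and 0 of 2 barcodes in adventitial stroma. Many of these shares rest on few Agtr2-positive barcodes, such as 5 and 1 in interstitial stroma. With every barcode thinned to 3000 UMIs, 5 and 4 had both.

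Stromal barcodes were next divided by marker sublists into subsets of the nephrogenic zone (352 and 386 barcodes), medullary (49 and 50), interstitial (70 and 62), mesangial (251 and 169) and adventitial (43 and 32) stroma. The remaining 236 and 214 entered none. The subset names stand for markers, such as Foxd1 in the nephrogenic zone and Clec3b and Pi16 in adventitia. Each subset was compared with the mean of the other 4 over 7998 genes, and of the 7 genes only Agtr1a, Agtr2 and Enpep had enough counts to be tested there.

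Agtr2 was highest in adventitial stroma, and Agtr1a in interstitial and mesangial stroma. Agtr2 stood at 485 CPM [419 to 559] and 517 CPM [443 to 601] in the adventitial subset, from 190 and 170 UMIs, and was detected in 76.7% and 93.8% of its barcodes. Medullary (38.5 and 51.9 CPM) and nephrogenic zone stroma (35.4 and 40.1 CPM) overlapped each other. Interstitial stroma had 21.6 and 3.95 CPM and mesangial stroma 11.8 and 9.27 CPM. Adventitial stroma was higher than the mean of the others by 4.60 ± 0.17 (log2, adjusted p = 1.25e-14, edgeR). Interstitial stroma was lower at -2.06 ± 0.36 (adjusted p = 4.25e-04, edgeR) and mesangial stroma at -2.49 ± 0.27 (adjusted p = 2.55e-06, edgeR), whereas the nephrogenic zone (-0.20 ± 0.19, adjusted p = 0.433, edgeR) and medullary stroma (0.15 ± 0.28, adjusted p = 0.826, edgeR) did not pass. The adventitial subset thus held 190 and 170 of the 468 and 403 stromal Agtr2 UMIs in 43 and 32 of the 1001 and 913 stromal barcodes.

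Agtr1a stood at 98.9 CPM [74.5 to 129] and 65.1 CPM [44.8 to 91.4] in interstitial stroma and at 42.5 and 39.4 CPM in mesangial stroma. It was low in the nephrogenic zone, at 5.69 and 4.28 CPM, near its level in barcodes of at most 100 UMIs. Interstitial stroma was higher than the mean of the others by 2.79 ± 0.29 (adjusted p = 9.93e-07, edgeR) and mesangial stroma by 1.45 ± 0.25 (adjusted p = 3.93e-04, edgeR). Nephrogenic zone stroma was lower at -2.27 ± 0.37 (adjusted p = 7.52e-05, edgeR). In adventitial stroma 1 and 7 UMIs were counted, and the comparison did not pass (-0.70 ± 0.58, adjusted p = 0.413, edgeR). Stromal barcodes that entered no subset also held the receptor, at 64.6 and 41.5 CPM. Agtr1b was found at 2.07 and 5.54 CPM in the nephrogenic zone, from 8 and 22 UMIs, and had no UMI in adventitial stroma.

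Enpep followed another pattern. It was highest in medullary stroma, at 250 and 145 CPM, and next in mesangial stroma, at 134 and 170 CPM. The library ranges of these 2 overlap. Medullary stroma was higher than the mean of the others by 2.36 ± 0.23 (adjusted p = 3.00e-07, edgeR) and mesangial stroma by 1.79 ± 0.19 (adjusted p = 1.49e-06, edgeR). Adventitial stroma, with 5 and 1 UMIs, was lower at -3.23 ± 0.50 (adjusted p = 4.62e-05, edgeR), and so was the nephrogenic zone at -1.52 ± 0.33 (adjusted p = 0.00111, edgeR). Interstitial stroma did not pass (0.59 ± 0.29, adjusted p = 0.195, edgeR).

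**Figure D4:**
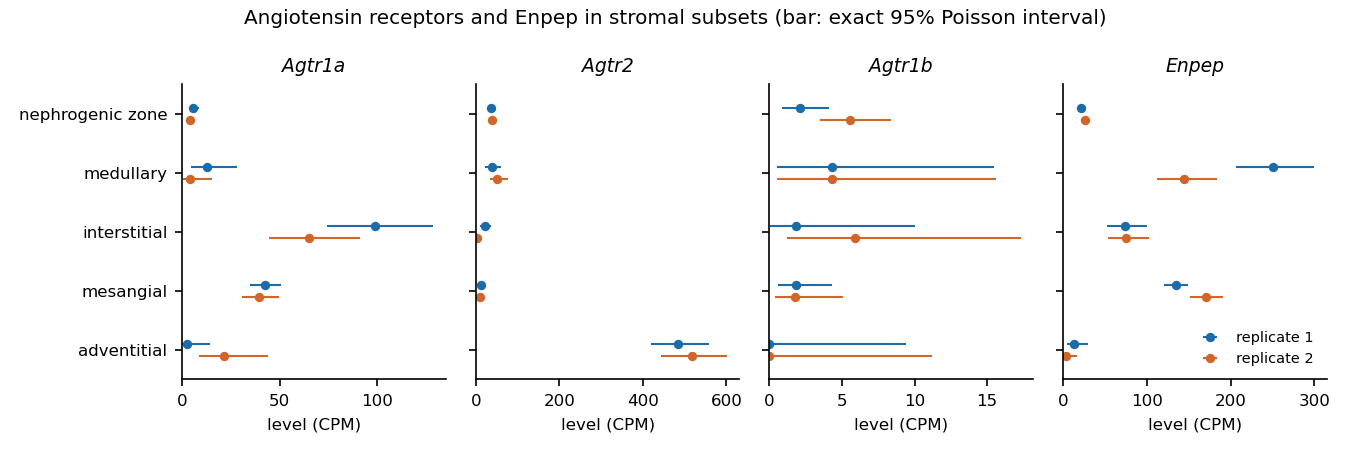
Levels (CPM, x axis, a separate linear scale per gene) of Agtr1a, Agtr2, Agtr1b and Enpep in the 5 stromal subsets (y axis); points are single libraries and bars exact 95% Poisson intervals. Agtr2 lies at 485 and 517 CPM in adventitial stroma and between 3.95 and 51.9 CPM in the other subsets, while Agtr1a is highest in interstitial and mesangial stroma.

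The calls of the 7 genes were counted in the 6 types compared and between mural and stroma. In stroma 5 were higher and 1 lower, where 52.6% of all genes tested were called, 30.5% higher and 22.1% lower. In mural barcodes 5 were higher and none lower, against 29% of all genes, 17.6% higher and 11.4% lower. The proximal tubule had 4 higher and none lower, against 54% (31.2% and 22.8%). Podocytes had 2 higher and none lower, against 53.6% (31% and 22.5%). Endothelium had 1 higher and 2 lower, against 53.4% (32% and 21.4%). Nephron progenitors had none higher and 2 lower, against 56.9% (34.2% and 22.6%). Between mural and stroma 2 were higher and 2 lower, against 17.2% (9.06% and 8.13%). For the 3 genes with UMIs in every type (Ace, Agtr1a and Enpep) the median log2 difference was Enpep's 2.06 in stroma, Agtr1a's 4.01 in the proximal tubule, Enpep's 1.26 in mural barcodes and Ace's 1.44 in podocytes, where the median over all genes was 0.04, 0.01, -0.02 and 0.04. It was negative in endothelium, with Agtr1a's -1.37 beside 0.05, and in nephron progenitors, with Enpep's -2.87 beside 0.07. Over the fitted values of all 7 genes, which have no firm scale for 4 of them, the median was 4.19 in stroma, 3.36 in the proximal tubule, 3.67 in mural barcodes, 0.09 in podocytes, 0.37 in endothelium and -1.61 in nephron progenitors, so that in endothelium its sign differs from that over the 3 genes. With shares of all genes this large, a call alone says little about these genes. In the stromal subsets, of the 3 genes tested, 1 was higher and 1 lower in adventitial stroma (28.5% of all genes, 16.2% and 12.3% by direction), 1 and 1 in interstitial (14.6%, 9.29% and 5.33%), 1 and none in medullary (11.3%, 5.85% and 5.44%), 2 and 1 in mesangial (19.5%, 11.1% and 8.35%), and none and 2 in the nephrogenic zone (37.5%, 19.8% and 17.7%).

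The wider pathway was read through 23 further genes, of which 16 had enough counts for the fit over types. In the proximal tubule 6 were higher and 3 lower, with a median of 0.09 (log2) beside 0.01 over all genes. Stroma had 1 higher and 7 lower (median -0.46 beside 0.04), mural barcodes 1 and 4 (-0.47 beside -0.02), podocytes 4 and 7 (-0.61 beside 0.04), endothelium 3 and 6 (-0.13 beside 0.05), and nephron progenitors 3 and 9 (-0.66 beside 0.07). The percentages of all genes called in these comparisons are those given above.

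The peptidases that degrade angiotensins differed in the types where they were highest. Mme, the gene of neprilysin, was highest in podocytes, at 522 and 478 CPM, followed by the proximal tubule at 256 and 236 CPM. It was the single gene of this list higher in stroma, at 130 and 114 CPM (1.07 ± 0.08, adjusted p = 2.05e-10, edgeR), and in mural barcodes, at 135 and 103 CPM (0.98 ± 0.11, adjusted p = 3.87e-07, edgeR). It was higher in podocytes by 3.20 ± 0.07 (adjusted p = 2.23e-20, edgeR) and lower in endothelium, at 5.80 and 4.77 CPM (-3.78 ± 0.14, adjusted p = 1.19e-15, edgeR). Anpep, the gene of aminopeptidase N, was highest in the proximal tubule, at 149 and 118 CPM (3.99 ± 0.12, adjusted p = 1.50e-17, edgeR), and lower in podocytes, at 1.36 and 0.316 CPM (-4.04 ± 0.40, adjusted p = 1.99e-08, edgeR). Prcp, the gene of prolylcarboxypeptidase, stood at 36.3 and 46.1 CPM in endothelium and at 3.81 and 4.58 CPM in podocytes, where it was lower than the mean of the others (-1.85 ± 0.21, adjusted p = 1.07e-07, edgeR). Between mural and stroma Dpp3, the gene of a cytosolic dipeptidyl peptidase, was the single pathway gene past the threshold (0.81 ± 0.19, adjusted p = 0.00515, edgeR).

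In stromal subsets, where 12 of the 23 genes were tested, Anpep was higher in adventitial stroma by 3.70 ± 0.32 (adjusted p = 1.45e-08, edgeR). Mme was higher in the nephrogenic zone by 2.48 ± 0.17 (adjusted p = 8.25e-10, edgeR) and lower in interstitial stroma (-2.90 ± 0.42, adjusted p = 5.01e-05, edgeR). Counts of higher and lower genes were 3 and 0 in adventitial, 2 and 1 in interstitial, none in medullary, 1 and 2 in mesangial, and 2 and 3 in nephrogenic zone stroma, beside 28.5%, 14.6%, 11.3%, 19.5% and 37.5% of all genes called in either direction.

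**Figure D5:**
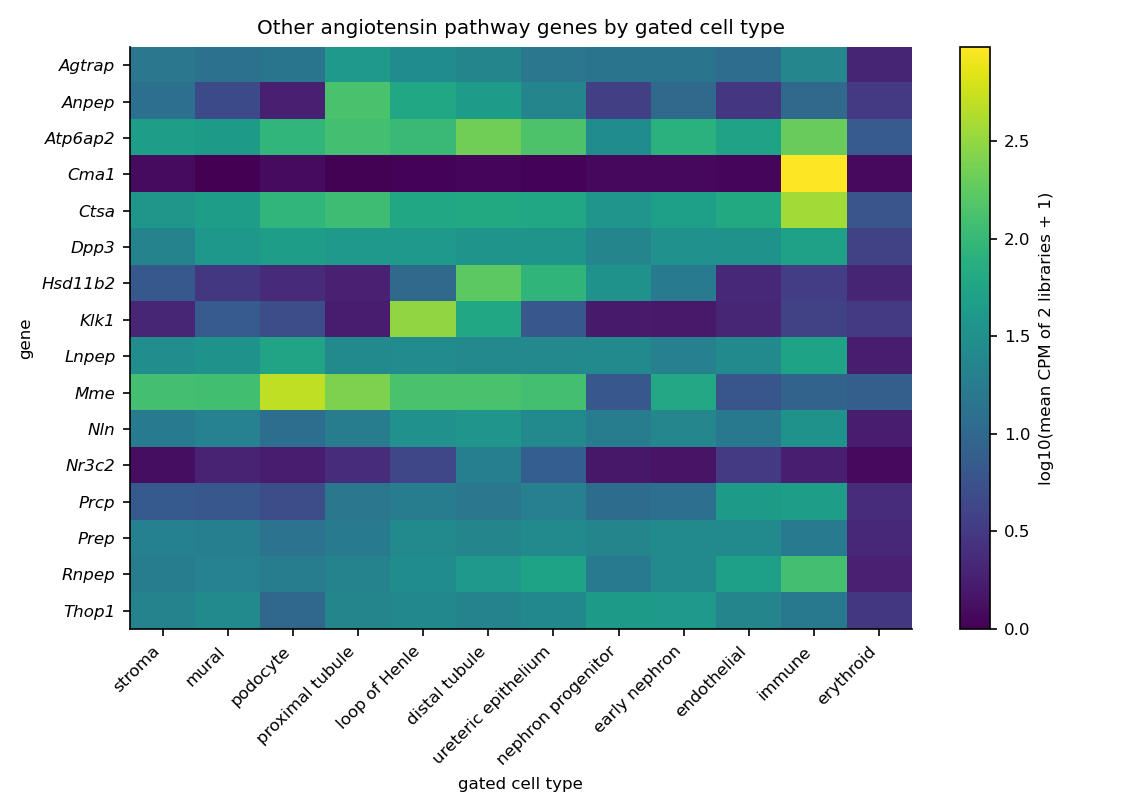
Levels of the 16 other pathway genes tested (rows) in the 12 gated types (columns), coloured by log10 of the mean CPM of the 2 libraries plus 1. Mme is bright in podocyte and proximal tubule, Hsd11b2 in distal tubule and ureteric epithelium, Klk1 in loop of Henle, and Cma1 in immune barcodes.

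The genes most like each of the 7 were sought by Pearson's r of log2(CPM + 1) over the 24 columns of 12 types and 2 libraries, among 12570 genes with at least 10 CPM in 1 column. The columns share their libraries, so these values are descriptions. For Ren1 the 5 highest were Myocd (0.97), the coactivator of smooth muscle genes, Rgs4 (0.97), itself a gate marker of the mural type, Rergl (0.96), Cpxm2 (0.96) and Psd (0.95). For Agt they were Serpina1b (0.92), a gene of the antitrypsin family, Lrrc19, Acsm1, Adra2b and C1ql3, and for Ace Kcnj15 (0.89), Slc22a2 (0.87), the organic cation transporter of the proximal tubule, Rbp2, Hgd and Dcst1. For Agtr1a they were C1qtnf3 (0.96), Matn2 (0.91), Dpep1, Fibin and Olfml1, of which Fibin is a marker of the nephrogenic zone sublist. Agtr2 was closest to Col5a3 (0.94), Fap (0.92), the fibroblast activation protein gene, Dnm3os, Col6a6 and Lmntd1, and Enpep to Ildr2 (0.92), C1ra, Cacna1g, Csdc2 and Fndc5. Agtr1b never reached 10 CPM, and its closest gene was Gm15478 at 0.94.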

How the data were processed

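The deposited values are raw UMI counts per gene and barcode, unfiltered for cells; per the file headers the authors wrote them with Cell Ranger 4, while the submitters' processing notes name Cell Ranger 6.0.1 and the build mm10. Gene positions come from RefSeq's annotation of GRCm38.p6, the assembly of mm10. The 7 genes, marker lists, pathway list and alternatives were chosen with earlier results of these data known. One gene of the pathway list is not reported here, and its values are in none of the list counts.

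Barcodes with at least 2000 UMIs and at most 10% mitochondrial UMIs were kept. A barcode entered 1 of 14 marker gates (111 markers in all) with UMIs of at least 3 of its markers and a score at least 1.2 times the next. The score is the mean over a gate's markers of the square root of the scaled level, each divided by its highest value in 1000 and capped at 1. A total of 717 barcodes were ambiguous, 456 ungated, and 957 gated ones lay within 1.5 times the next score. No doublet caller was used in the values given, and removing the highest Scrublet scores (310 and 212 barcodes) was an alternative.

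UMIs were summed per library and type (12 types with at least 20 barcodes in each library) or stromal subset (at least 2 subset markers), and fitted in edgeR 4.0.16 (R 4.3.3, limma 3.58.1) with TMM, filterByExpr, a library block and Benjamini-Hochberg adjustment at 0.05. The fits had 11 and 4 residual degrees of freedom from 24 and 10 columns. The stroma contrast of the fit over types was tested on simulated data, with a larger dispersion than the fitted one. The subset fit was not tested in this way. The neutrophil and neural gates were too small. DESeq2 1.42.0 was the alternative tool. Python 3.11.15, numpy 2.4.6, pandas 2.3.3, scipy 1.17.1, scanpy 1.11.5 and igraph 0.11.9 did the rest. Named genes were the 7, up to 5 called pathway genes per contrast by size of change, and the 5 genes most like each of the 7. Values for Prcp in endothelium, the companion genes named, the barcodes with most Ren1 and levels without a gene's richest barcode were chosen after their values were seen. Gucy1a1 and Gucy1b1 of the companion list are Gucy1a3 and Gucy1b3 in the files. The library numbers follow the order of the sample records.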

Additional observations from a re-analysis of the deposited data

How the results depend on the processing

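For the 36 called fold changes of the 7 genes, 346 values recomputed with a p kept the call in 336 cases and lost it in 10, and none turned. Of 72 single-library values, which have no p, 71 kept the direction and 1 turned, namely Agtr1b in mural barcodes (log2 -1.19 without replicate 1 and 6.40 without replicate 2). In a further 16 cases no value was had, and these are in none of the counts. In 5 of them, at a mitochondrial limit of 5%, the gene left the fit (Agt in mural barcodes, between mural and stroma and in the proximal tubule, Agtr1b in stroma and mural barcodes), and in 11 the type or subset was not formed. Of 426 folds of pathway genes recomputed with a p, 25 lost the call, and neither these nor the 90 single-library values turned. The number of the 7 genes called in mural barcodes went from 5 to 3 with a mitochondrial limit of 5% (all genes from 29% to 19.3%), that in nephron progenitors from 2 to 5 with DESeq2 (56.9% to 60.1%), and that between mural and stroma from 4 to 2 with DESeq2 (17.2% to 17.7%) and to 1 with the 5% limit (to 8.78%). With that limit the pathway genes called went from 5 to 3 in mural barcodes, 9 to 5 in the proximal tubule (all genes from 54% to 37.2%) and 12 to 7 in nephron progenitors (to 45.1%). Between mural and stroma they went from 1 to 2 with DESeq2 and to 3 without the low-count filter (all genes to 13.7%), and in the nephrogenic zone from 5 to 3 with DESeq2 (37.5% to 20.5%). Renin-positive barcodes numbered 56, and 24 to 32 in a single library, 19 with at least 2 Ren1 UMIs, 6 with at least 5, 5 with at least 10 and 25 with the 5% limit. Their share with EYFP was 69.6%, and 94.7% with at least 2 Ren1 UMIs, 83.3% with at least 5 and 84.0% with the 5% limit. Without the replicate block (library) the adjusted p was 0.0785 for Enpep between mural and stroma and 0.0608 for Agtr1a in endothelium, by edgeR's quasi-likelihood test, and no other call of the 7 genes was lost. With Leiden clusters in place of the gate, which gave no mural or distal cluster, Ren1 was highest in stroma. Agtr1a was highest in mural barcodes at a 5% mitochondrial limit and in the proximal tubule at 20%. The cause of these changes was not tested. A single-library fit has no residual degrees of freedom and gives values only, and the test of renin-rich barcodes was not run because each library had 3 of them, under the minimum of 10.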

Other observations

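Other genes of the fixed lists were concentrated in few barcodes. Cma1, the gene of a mast cell chymase that can form angiotensin II, had 2185 and 1282 UMIs in the immune gate, from 6 of its 193 and 3 of its 153 barcodes. Akr1b7 had 562 UMIs in ureteric epithelium of replicate 1, 198 of them in 1 barcode, and 8 in replicate 2. Klk1, the gene of tissue kallikrein, had 2526 and 1292 UMIs in the loop of Henle (397 and 215 CPM). In the distal tubule it had 393 and 31 UMIs, of which 210 and 26 fell in 1 barcode of each library.

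Hsd11b2 and Nr3c2 were highest in the distal tubule. Hsd11b2, whose product protects the mineralocorticoid receptor from glucocorticoids, stood at 159 and 178 CPM there, 61.6 and 113 CPM in ureteric epithelium, and 34.2 and 29.2 CPM in nephron progenitors. In nephron progenitors it was higher than the mean of the other types by 2.35 ± 0.16 (log2, adjusted p = 8.66e-11 by edgeR's quasi-likelihood test). Nr3c2, the mineralocorticoid receptor gene, stood at 19.5 and 17.3 CPM in the distal tubule and 6.59 and 7.02 CPM in ureteric epithelium. The aldosterone synthase gene Cyp11b2 had no UMI in the kept barcodes, and the receptor genes Mas1 (7 and 5 UMIs) and Mrgprd (0 and 1) were close to none.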
